A study of Mus musculus with 21 samples.

Results

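The 3 receptors of the B cell cytokines BAFF and APRIL were followed through all 9 groups of a bulk RNA sequencing series on self-reactive B cells of the mouse gut. They are Tnfrsf13c, which encodes the BAFF receptor, Tnfrsf13b, which encodes TACI, and Tnfrsf17, which encodes BCMA. The genes were chosen by name, and all 3 have a row among the 23337 genes of the count table. Both they and the gene lists used below were chosen with earlier results of these data known. Its 21 libraries come from sorted B cells of C57BL/6 mice aged 8 to 12 weeks, taken from the spleen (Spl), the mesenteric nodes (mLN) or the Peyer's patches (PP), which are lymphoid follicles of the small intestine. For each tissue there is a single pooled library of HEL neg cells, while HEL pos cells (Pool, 392, 399) and BCL2 HEL pos cells (922, 926, 950) have 3 libraries each. The labels expand neither HEL nor BCL2, name no transgene promoter, and give the groups no other treatment. Whether a numbered library is a single mouse is not stated, so p-values measure library-to-library spread, part of which may be technical. Each number recurs in every tissue, and the main tests did not pair libraries by number.

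BAFF and APRIL are ligands of the TNF family that are made largely by myeloid and stromal cells. BAFF binds all of these receptors, with the BAFF receptor binding BAFF alone, whereas TACI and BCMA also bind APRIL. The BAFF receptor keeps mature naive B cells alive through the alternative NF-kappaB pathway and the PI3K pathway. TACI is carried by activated, marginal zone and B-1 cells and can restrain B cell numbers, and BCMA is best known as the survival receptor of plasma cells.

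In the mm10 build (GENCODE M21 annotation), Tnfrsf13c (ENSMUSG00000068105.11) lies on the minus strand of chromosome 15 from 82221743 to 82224369, with 3 merged exons of 2048 bases in all. Tnfrsf13b (ENSMUSG00000010142.12) lies on the plus strand of chromosome 11 from 61126755 to 61149372, with 8 merged exons of 2836 bases. Tnfrsf17 (ENSMUSG00000022496.5) lies on the plus strand of chromosome 16 from 11313812 to 11320074, with 3 exons of 815 bases. The only annotated gene that overlaps any of them is Gm12269, a processed pseudogene on the opposite strand within Tnfrsf13b, which has no row in the table.

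The start-site windows of the 2 abundant receptor genes are shown because their transcripts followed different patterns across the groups. Each window of 300 bases ends 50 bases after the RefSeq start in GRCm38.p6 (mm10) and is written on the gene's own strand. Capitals mark matches, on either strand, to the ETS core GGAA and the E-box CANNTG, the letters that ETS factors and E proteins of the B lineage are known to bind.
Tnfrsf13c, chr15:82224331-82224630, minus strand: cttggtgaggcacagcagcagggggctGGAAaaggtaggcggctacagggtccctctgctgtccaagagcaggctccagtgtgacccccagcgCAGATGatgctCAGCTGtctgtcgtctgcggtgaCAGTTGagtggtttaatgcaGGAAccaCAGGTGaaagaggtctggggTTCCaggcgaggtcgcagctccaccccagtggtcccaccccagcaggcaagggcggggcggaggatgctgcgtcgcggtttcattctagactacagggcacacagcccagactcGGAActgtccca
Tnfrsf13b, chr11:61126505-61126804, plus strand: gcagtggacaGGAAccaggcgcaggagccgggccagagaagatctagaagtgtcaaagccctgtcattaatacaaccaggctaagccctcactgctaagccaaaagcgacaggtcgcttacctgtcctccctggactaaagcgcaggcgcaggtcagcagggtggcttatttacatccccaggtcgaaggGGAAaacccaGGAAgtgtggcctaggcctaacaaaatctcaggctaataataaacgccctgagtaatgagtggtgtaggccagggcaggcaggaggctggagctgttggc
The Tnfrsf13c window held 4 E-box matches and 4 ETS cores, which did not overlap each other. The Tnfrsf13b window held 0 E-box matches and 3 ETS cores. Of 32851 such windows of 27025 genes, 72.3% held at least 1 E-box and 96.0% at least 1 ETS core, so neither motif is rare. Matches to EGR (GCGNGGGCG), to EBF (TCCCNNGGGA) and to the NF-kappaB consensus were 0 in both windows, against 5.55%, 0.904% and 4.51% of all windows that held them. These matches describe letters in the windows and were not tied to any change in level.

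Library totals ran from 5475131 to 11340876 counts, and no libraries of a group were identical (Spearman correlations across genes of 0.954 to 0.99). Summed counts of 4 Y-linked genes were at most 0.869 CPM (counts relative to the library size) in the HEL pos libraries 392 and 399 of every tissue. They were 92.3 to 168 CPM in the other 15 libraries, so each HEL pos group mixes libraries with and without Y-linked transcripts. Xist, which female cells transcribe, was at 79.3 to 387 CPM in those 15 libraries and at 232 to 608 CPM in 392 and 399. The 15 libraries thus held both kinds of transcript, and whether any pools mice of both sexes was not tested. Mouse Bcl2, the apoptosis inhibitor, was higher in BCL2 HEL pos than in HEL pos cells in Spl (168 against 69.2 CPM), mLN (157 against 71.9) and PP (148 against 63.8), with edgeR adjusted p from 0.00129 to 0.00336; the labels do not say whether a transgene would add to these counts. The 8 B cell identity genes (such as Ms4a1 and Pax5) had at least 1 count in every group. Their summed level was lowest in mLN HEL pos cells (9630 to 10600 CPM) and highest in Spl HEL pos cells (20000 to 22300 CPM).

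The 3 receptors differed widely in abundance. Averaged over the 21 libraries and divided by exon length, Tnfrsf13c reached 276 CPM per kilobase and ranked 167th among 20929 genes with a known length. Tnfrsf13b reached 26.1 CPM per kilobase (rank 1808), and Tnfrsf17 0.134 CPM per kilobase (rank 11247). Among 28 genes of the TNF receptor superfamily, Tnfrsf13c had the highest level per kilobase in every group, from 187 in mLN BCL2 HEL pos cells to 347 in Spl HEL pos cells. Cd40, which receives help from T cells, came next in all 9 groups, with 76.8 CPM per kilobase in Spl HEL pos and 31.7 in mLN HEL pos cells. Tnfrsf13b came after Cd40 in 7 groups, from 24.4 CPM per kilobase in PP HEL pos to 31.5 in mLN HEL neg cells. It had rank 4 in Spl BCL2 HEL pos cells (20.8) and in PP HEL neg cells (20.5), in the latter behind the death receptor Fas (23.9).

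**Figure D1:**
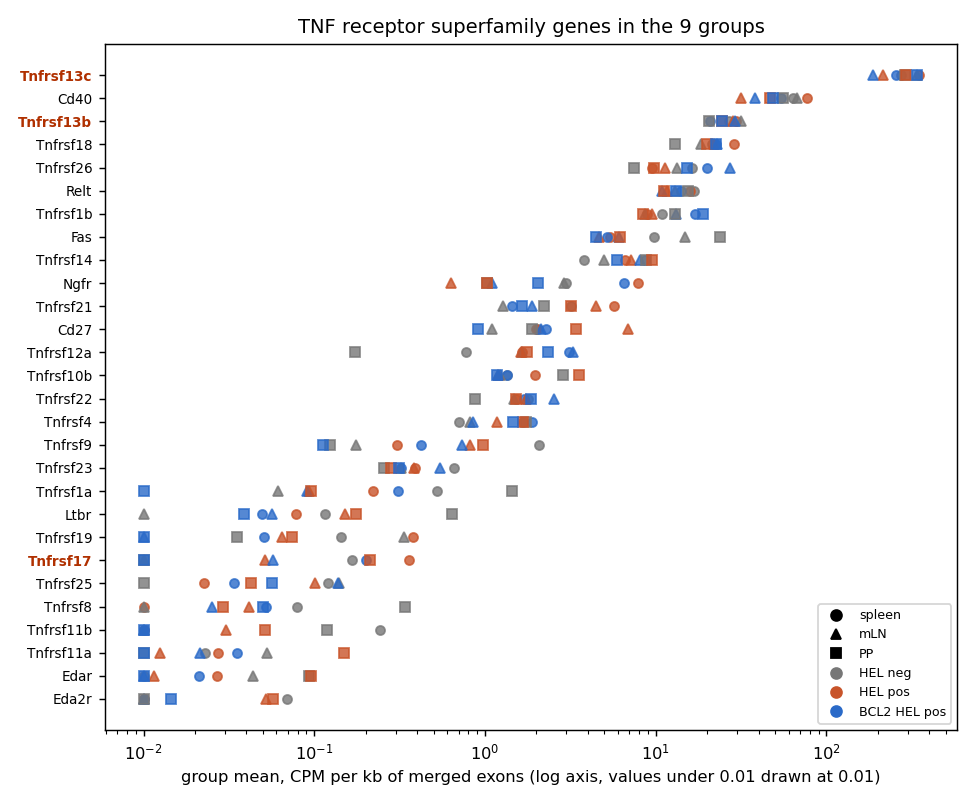
Group means of 28 TNF receptor superfamily genes in CPM per kilobase of merged exons, on a log axis, with 1 point per group; shape gives the tissue and colour the cells. Tnfrsf13c lies to the right of all other genes (187 to 347 CPM per kilobase), Tnfrsf13b lies near Cd40, and Tnfrsf17 lies below 1 CPM per kilobase.

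Tnfrsf17 was close to undetectable. Of the 21 libraries, 13 had 0 counts, 7 had 1 to 3 counts, and the Spl HEL pos library 392 had 5, for a total of 16 counts. In Spl the counts were 1 in HEL neg, 1, 5 and 0 in HEL pos (Pool, 392, 399) and 1, 3 and 0 in BCL2 HEL pos cells (922, 926, 950). In mLN they were 0 in HEL neg, 1, 0 and 0 in HEL pos and 0, 0 and 1 in BCL2 HEL pos cells. In PP only the HEL pos library 399 had any, with 3. A floor of 3 counts equals 0.263 to 0.518 CPM in these libraries, which covers counting error only. The gene did not pass the filter on low counts, so it was not tested, and no difference between groups could be detected at this depth. Other genes of the plasma cell list had counts in the same libraries. The summed level of 9 of them (with Xbp1, Irf4 and Sdc1, without Tnfrsf17) was 521 to 1140 CPM. None was at 0 throughout a group. Against HEL neg cells, with tissue as covariate, members went both ways. Irf4 was higher in HEL pos cells (log2 change 0.85, edgeR adjusted p = 0.0392) and with the BCL2 label (1.17, 0.00114). Igj was lower in both (-4.07, 0.000224, and -2.26, 0.00232). Prdm1 was lower with the BCL2 label (-1.18, 0.0178) and not called in HEL pos cells (-1.65, 0.0733). The sum therefore does not show whether plasma cells were present.

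Tnfrsf13c had its highest group means in Spl HEL pos, mLN HEL neg and PP BCL2 HEL pos cells and its lowest in mLN HEL pos and mLN BCL2 HEL pos cells. In Spl the HEL neg pool had 563 CPM (95% Poisson interval for counting error 546 to 581). The Spl HEL pos libraries had 735, 705 and 690 CPM (Pool, 392, 399; mean 710 ± 23.2, SD, n = 3), and the Spl BCL2 HEL pos libraries 494, 578 and 502 CPM (922, 926, 950; 525 ± 46.4). All HEL pos libraries of the spleen lay above all BCL2 HEL pos libraries, with the HEL neg pool between the group means.

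In mLN the HEL neg pool had 694 CPM of Tnfrsf13c (674 to 715). The mLN HEL pos libraries had 395, 466 and 452 CPM (438 ± 37.8, n = 3), and the mLN BCL2 HEL pos libraries 412, 354 and 386 CPM (384 ± 29.0). Both groups lay below the HEL neg pool in every library, and they overlapped each other.

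In PP the HEL neg pool had 591 CPM of Tnfrsf13c (571 to 611). The PP HEL pos libraries had 533, 667 and 601 CPM (601 ± 67.0, n = 3), and the PP BCL2 HEL pos libraries 696, 658 and 717 CPM (690 ± 29.8). The HEL pos libraries of this tissue lay on both sides of the HEL neg pool. From high to low, the means of Spl HEL pos (710), mLN HEL neg (694) and PP BCL2 HEL pos cells (690) did not differ beyond their spread. Nor did those of PP HEL pos (601), PP HEL neg (591), Spl HEL neg (563) and Spl BCL2 HEL pos cells (525), each taken against its neighbour. The step between PP BCL2 HEL pos and PP HEL pos cells was not called either (0.19 ± 0.12, edgeR adjusted p = 0.341), and their libraries overlapped. The step from Spl BCL2 HEL pos to mLN HEL pos cells (438) had no overlap between libraries, and the last step to mLN BCL2 HEL pos cells (384) lay within the spread.

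**Figure D2:**
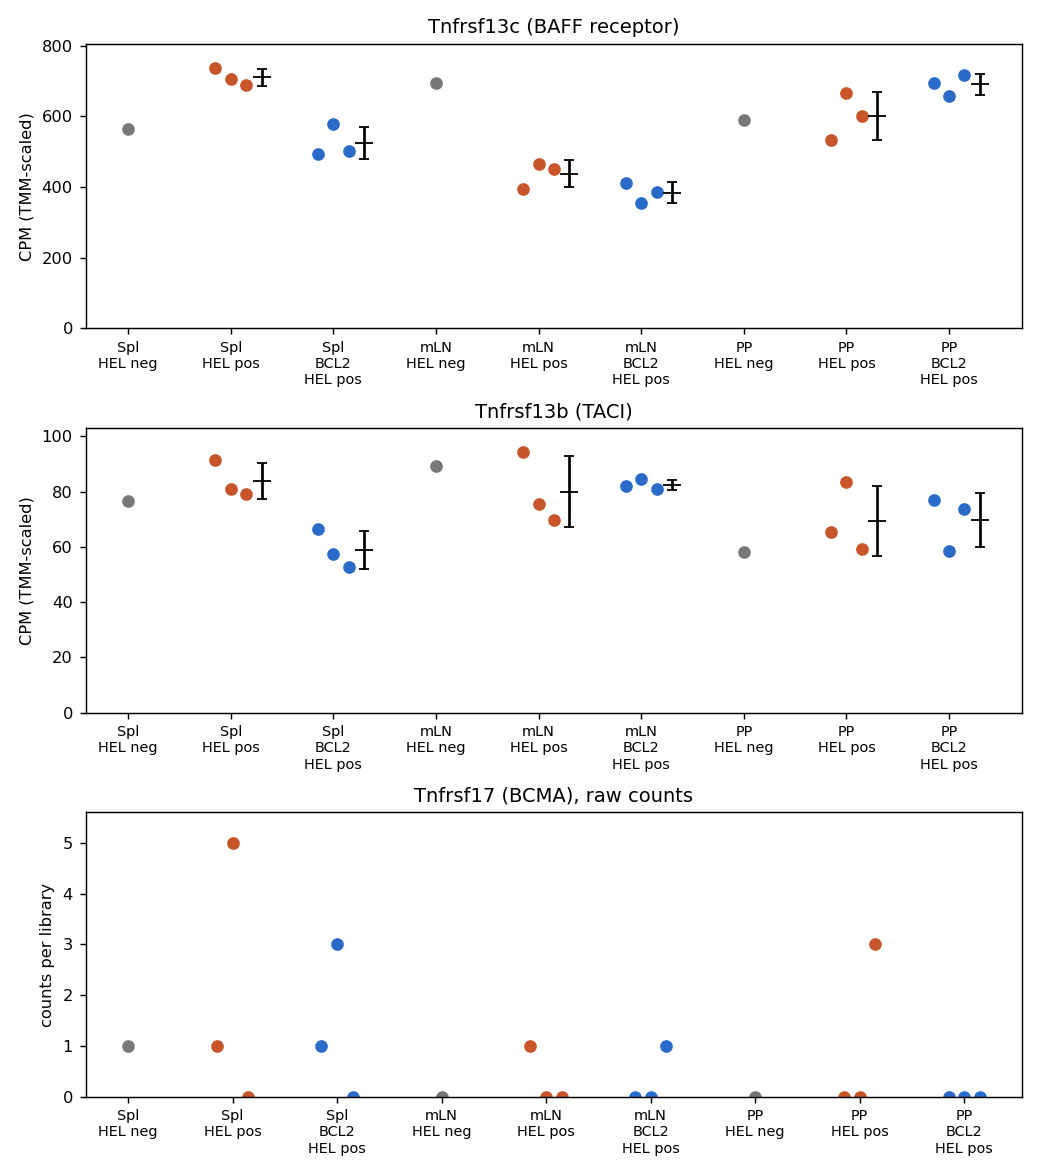
Level of Tnfrsf13c and Tnfrsf13b in CPM of TMM-scaled totals, and raw counts of Tnfrsf17, with 1 point per library in the 9 groups; black bars give the mean and SD of groups of 3. Tnfrsf13c is lowest in the mLN HEL pos and BCL2 HEL pos libraries (354 to 467 CPM) while the mLN HEL neg pool stands at 694 CPM, and Tnfrsf17 has at most 5 counts.

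Tnfrsf13b varied less. In Spl it was at 76.5 CPM in the HEL neg pool (70.3 to 83.1), at 91.3, 81.0 and 79.2 CPM in the HEL pos libraries (Pool, 392, 399; 83.8 ± 6.55, SD, n = 3) and at 66.5, 57.5 and 52.7 CPM in the BCL2 HEL pos libraries (922, 926, 950; 58.9 ± 6.97). The BCL2 HEL pos libraries of the spleen were thus all below the other libraries of that tissue. In mLN it was at 89.4 CPM in the HEL neg pool (82.1 to 97.1), at 94.4, 75.5 and 69.9 CPM in the HEL pos libraries (80.0 ± 12.9) and at 81.9, 84.6 and 81.0 CPM in the BCL2 HEL pos libraries (82.5 ± 1.86). In PP it was at 58.1 CPM in the HEL neg pool (52.1 to 64.6), at 65.2, 83.6 and 59.1 CPM in the HEL pos libraries (69.3 ± 12.8) and at 77.1, 58.6 and 73.7 CPM in the BCL2 HEL pos libraries (69.8 ± 9.86). Ordered by mean, the groups ran from mLN HEL neg (89.4) through Spl HEL pos (83.8), mLN BCL2 HEL pos (82.5), mLN HEL pos (80.0), Spl HEL neg (76.5), PP BCL2 HEL pos (69.8) and PP HEL pos (69.3) to Spl BCL2 HEL pos (58.9) and PP HEL neg cells (58.1). No 2 neighbours in this order differed beyond their spread.

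Between tissues, HEL pos cells of the mLN had less Tnfrsf13c than those of the spleen. The log2 change was -0.69 ± 0.12 (SE), a fold of 0.621, with an edgeR adjusted p of 0.000188. In this comparison 24.5% of 11419 genes were called. PP HEL pos cells had more Tnfrsf13c than mLN HEL pos cells (0.45 ± 0.12, fold 1.36, edgeR adjusted p = 0.0232), where 8.86% of genes were called. That call was lost when the mLN HEL pos library Pool or 399 or the PP HEL pos library 392 was left out (0.37 to 0.52 over all 6 left-out libraries), with no filter on low counts (adjusted p = 0.0716), and without both PP HEL pos libraries 399 and Pool (adjusted p = 0.058). Against Spl, PP HEL pos cells showed -0.24 ± 0.12 (95% interval -0.48 to 0.01, edgeR adjusted p = 0.187), where 15.4% of genes were called.

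BCL2 HEL pos cells gave the same order of mLN below the other tissues. Tnfrsf13c was lower in mLN than in Spl (-0.47 ± 0.12, fold 0.723, edgeR adjusted p = 0.0136), where 10% of genes were called; the call was lost without the library 926 of either tissue (adjusted p = 0.0979 without that of Spl and 0.0988 without that of mLN). It was higher in PP than in mLN (0.84 ± 0.12, fold 1.79, edgeR adjusted p = 0.0017), in a comparison where only 1.16% of genes were called. By size of change, Tnfrsf13c ranked 885th of 11419 genes there. PP against Spl gave 0.37 ± 0.12 and, without a term for the library number, an edgeR adjusted p of 0.0622 (7.34% of genes called). DESeq2 called this difference (adjusted p = 0.00742), and so did edgeR with the library number as a block.

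Tnfrsf13b was not called between tissues by edgeR without a term for the library number. Its log2 change in HEL pos cells was -0.06 ± 0.15 for mLN against Spl, -0.21 ± 0.15 for PP against mLN and -0.27 ± 0.15 for PP against Spl (edgeR adjusted p = 0.821, 0.399 and 0.243). In BCL2 HEL pos cells it was 0.47 ± 0.15 for mLN against Spl, opposite in sign to Tnfrsf13c, with an edgeR adjusted p of 0.0531. DESeq2 called that difference (adjusted p = 0.0315), and so did edgeR with the library number as a block. PP against mLN gave -0.25 ± 0.15 and PP against Spl 0.22 ± 0.15 (edgeR adjusted p = 0.59 and 0.482).

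Within a tissue, both receptors were lower in BCL2 HEL pos than in HEL pos cells in the spleen and were not called in the gut tissues. In Spl, Tnfrsf13c changed by -0.42 ± 0.12 (fold 0.746, edgeR adjusted p = 0.0276) and Tnfrsf13b by -0.50 ± 0.15 (fold 0.708, edgeR adjusted p = 0.0421), where 9.37% of genes were called. Both calls were fragile. That of Tnfrsf13c was lost without Spl HEL pos Pool or 399 or Spl BCL2 HEL pos 922 or 950 (-0.50 to -0.38 over 6 left-out libraries) and without the filter on low counts (adjusted p = 0.069). That of Tnfrsf13b was lost without any single library but Spl BCL2 HEL pos 922 (-0.59 to -0.45). The Y-linked transcripts differ between these groups too, since Spl HEL pos 392 and 399 lack them, and their part in the receptor values was not tested. In mLN the change was -0.21 ± 0.12 for Tnfrsf13c (95% interval -0.45 to 0.04) and 0.03 ± 0.15 for Tnfrsf13b (-0.28 to 0.34), with edgeR adjusted p of 0.292 and 0.931 (11.7% of genes called). In PP it was 0.19 ± 0.12 for Tnfrsf13c (-0.06 to 0.43) and 0.00 ± 0.15 for Tnfrsf13b (-0.32 to 0.31), with edgeR adjusted p of 0.341 and 0.992 (10.1% of genes called).

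Whether the tissue difference itself depended on BCL2 was tested with interaction terms. For PP against Spl the term was 0.61 ± 0.17 for Tnfrsf13c (edgeR adjusted p = 0.263) and 0.49 ± 0.21 for Tnfrsf13b (0.472), where 0.00876% of genes, a single gene, were called. DESeq2, which called 60 genes for this term, called Tnfrsf13c (0.62, adjusted p = 0.0142). For mLN against Spl the term was 0.22 ± 0.17 for Tnfrsf13c and 0.53 ± 0.21 for Tnfrsf13b (edgeR adjusted p = 0.787 and 0.414), where 0.385% of genes were called.

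**Figure D3:**
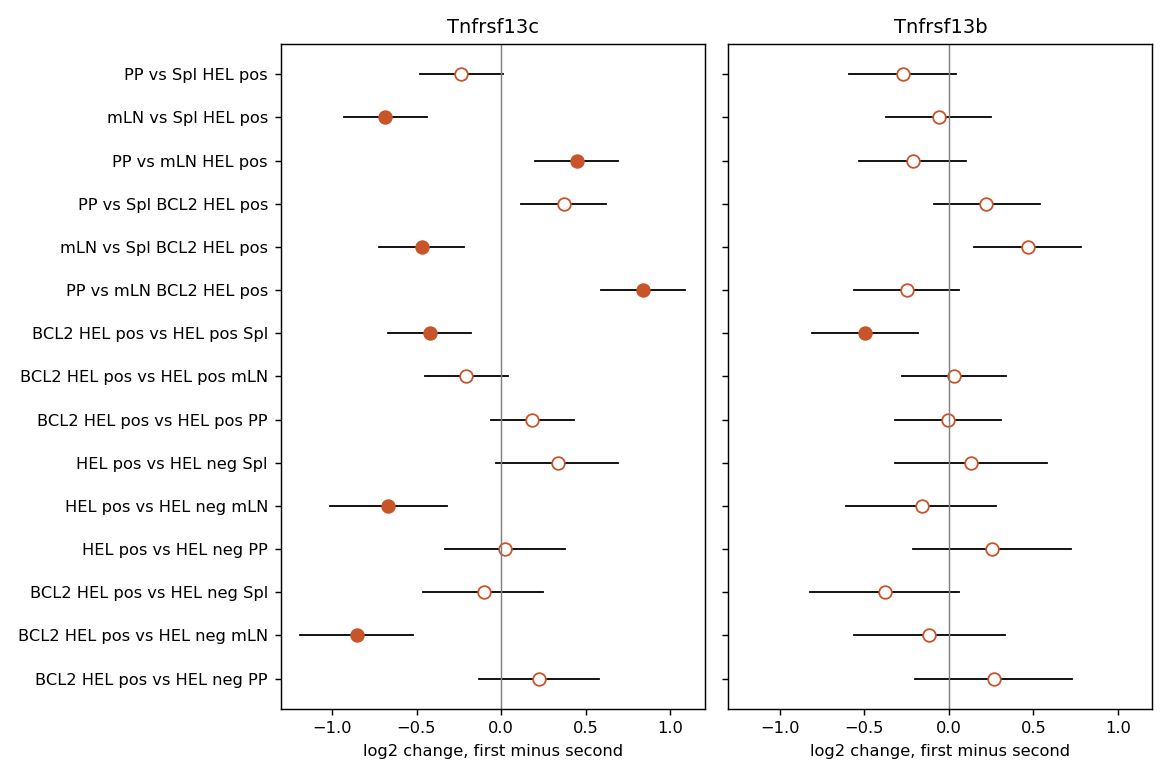
Log2 change of Tnfrsf13c and Tnfrsf13b in 15 comparisons (first group minus second); points are the fitted change, lines the 95% interval, and filled points have an edgeR adjusted p under 0.05. Changes against HEL neg cells come from the fit of all 21 libraries. Tnfrsf13c is called lower in mLN than in Spl (-0.69 and -0.47) and than mLN HEL neg cells (-0.67 and -0.86), and Tnfrsf13b is called in Spl only (-0.50).

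Set against the single HEL neg pools, Tnfrsf13c differed most in the mLN. With tissue as a covariate, HEL pos minus HEL neg was -0.13 ± 0.15 for Tnfrsf13c and 0.07 ± 0.14 for Tnfrsf13b (edgeR adjusted p = 0.674 and 0.803; 8.68% of 11406 genes called). BCL2 HEL pos minus HEL neg was -0.29 ± 0.15 and -0.10 ± 0.13 (edgeR adjusted p = 0.22 and 0.668; 14.7% of 10987 genes called). Without the mLN HEL neg pool the sign of both Tnfrsf13c values turned, to 0.17 and 0.04. The sign for Tnfrsf13b also turned, to -0.004 without the PP HEL neg pool for HEL pos cells and to 0.05 without the Spl HEL neg pool for BCL2 HEL pos cells. The tissues were therefore also compared one by one in a fit of all 21 libraries.

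That fit, added after the levels had been seen, assumes that each lone HEL neg pool varies like the other groups. In mLN, Tnfrsf13c was lower than in HEL neg cells by -0.67 ± 0.17 in HEL pos cells (fold 0.63, edgeR adjusted p = 0.0106; 9.34% of 13741 genes called) and by -0.86 ± 0.16 in BCL2 HEL pos cells (fold 0.553, adjusted p = 0.00381; 3.19% called). In Spl the changes were 0.33 ± 0.17 (adjusted p = 0.619; 0.444% called) and -0.10 ± 0.17 (0.897; 1.13% called). In PP they were 0.02 ± 0.17 (0.959; 4.85% called) and 0.22 ± 0.17 (0.478; 6.13% called). Tnfrsf13b was called in none of these 6 comparisons, with changes from -0.38 in Spl to 0.27 in PP, both in BCL2 HEL pos cells (edgeR adjusted p from 0.523 to 0.929).

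In the same fit the mLN minus Spl change of Tnfrsf13c was more negative in HEL pos than in HEL neg cells by -1 ± 0.24 (95% interval -1.5 to -0.5, edgeR adjusted p = 0.0252; 2.66% of genes called). The call was lost without the mLN HEL pos library 399 (adjusted p = 0.0548). For BCL2 HEL pos against HEL neg cells this difference was -0.75 ± 0.24 (edgeR adjusted p = 0.265; 0.342% called). For PP minus mLN it was 0.69 ± 0.24 in HEL pos cells (0.33; 0.138% called) and 1.08 ± 0.24 in BCL2 HEL pos cells (0.0966; 0.0437% called). DESeq2 called both BCL2 HEL pos values (adjusted p = 0.0174 and 0.000258). All of these values share the same 3 HEL neg pools, and each pool is 1 library. The HEL neg libraries all carry the label Pool, as does a HEL pos library of each tissue but no BCL2 HEL pos library. Against BCL2 HEL pos cells, the HEL neg label and the label Pool therefore cannot be told apart. Germinal centre transcripts moved with the HEL neg label: the sum of 9 such genes, none at 0 in any group, was 414, 651 and 1020 CPM in the HEL neg pools of Spl, mLN and PP and 79.5 to 170 CPM in the other 18 libraries. Their part in the receptor values was not tested.

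The ratio of the 2 receptor transcripts within a library, per kilobase, does not depend on how libraries are scaled. Tnfrsf13c exceeded Tnfrsf13b 10.2-fold in Spl HEL neg, 11.7-fold in Spl HEL pos and 12.4-fold in Spl BCL2 HEL pos cells. In PP the ratios were 14.1, 12.1 and 13.8, in the same order of groups. In mLN the HEL neg pool had a ratio of 10.8, whereas the mean was 7.62 in HEL pos cells (libraries 5.79, 8.55 and 8.95) and 6.43 in BCL2 HEL pos cells (6.96, 5.79 and 6.6). The 6 libraries of these groups had the lowest ratios of all 21, and all others lay between 10.2 and 15.6. Across libraries the log2 levels of the receptors had a Pearson correlation of 0.01 over all 21, and of 0.83 in Spl, 0.29 in mLN and 0.40 in PP (7 libraries each). These correlations are descriptions, since libraries share tissues and both genes of a library share its scaling factor.

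**Figure D4:**
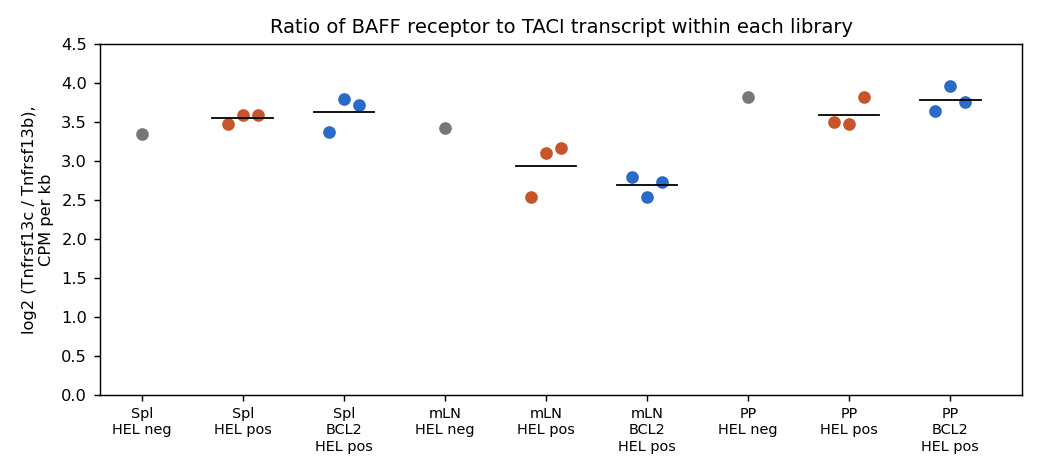
Log2 ratio of Tnfrsf13c to Tnfrsf13b, both in CPM per kilobase, with 1 point per library in the 9 groups and a line at the mean of groups of 3. The mLN HEL pos and BCL2 HEL pos libraries (log2 2.53 to 3.16) lie below all other libraries.

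The ligand genes were near the floor in these sorted cells. Of 5 symbols looked for, 3 had rows, and none passed the filter. Tnfsf13b, which encodes BAFF, had group means from 0.0445 CPM in mLN HEL pos to 0.673 CPM in PP HEL neg cells. Tnfsf13, which encodes APRIL, was at 0 in all libraries of 7 groups, with 2 counts in mLN BCL2 HEL pos and 3 in PP HEL neg cells. Among the heparan sulfate proteoglycans, which bind APRIL and TACI, 3 of 6 genes were tested. Sdc1, also a plasma cell marker, was higher in mLN than in Spl in HEL pos cells (45.3 against 8.53 CPM, 2.42 ± 0.30, edgeR adjusted p = 4.25e-06), while the more abundant Sdc4 was lower (271 against 648 CPM, -1.24 ± 0.15, 3.5e-06).

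B cell identity genes fell with Tnfrsf13c in the mLN. Of 8 in HEL pos cells, 7 were called lower than in Spl and 0 higher, where 24.5% of all genes were called, with a median log2 change of -1.13 against -0.01 over all genes tested. Ms4a1, which encodes CD20, fell from 4480 ± 218 to 1570 ± 125 CPM (SD, n = 3 each; log2 change -1.50 ± 0.13, edgeR adjusted p = 3.69e-08), and Ebf1, a B lineage transcription factor, by -1.13 ± 0.11 (3.51e-07). Both changes are larger than the -0.69 of Tnfrsf13c; these differences between genes were not tested. In BCL2 HEL pos cells Ms4a1 (-0.56 ± 0.12, edgeR adjusted p = 0.00547) and Ebf1 (-0.85 ± 0.11, 5.18e-05) were also lower in mLN than in Spl. In bulk samples fewer cells of a type and less RNA per cell cannot be told apart.

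Markers of other cells were compared for the same groups. The 12 T and NK cell genes summed to 28.7 to 80.5 CPM in mLN HEL pos and 16.5 to 41.0 CPM in Spl HEL pos cells, with none at 0 in either group. The 9 plasma cell genes summed to 960 to 1010 and 521 to 663 CPM. Called genes of that list went both ways in PP against mLN HEL pos cells. Igj was higher there (log2 change 2.28), while Sdc1 (-1.45), Slamf7 (-0.92) and Derl3 (-0.89) were lower. The plasma cell sum is therefore not read as a difference in plasma cells. The 12 enterocyte genes summed to 30.8 to 38.3 CPM in mLN HEL pos cells, with Apoa1 and Krt8 at 0, and to 241 to 1040 CPM in PP HEL pos cells, with none at 0. The 12 myeloid genes summed to 161 to 191 CPM in mLN and 283 to 524 CPM in Spl HEL pos cells, with Cd14 at 0 in mLN. The neutrophil gene S100a8 had 1 count over the mLN HEL pos libraries against 1027 over those of Spl, and S100a9 had 1 against 576. In the Spl BCL2 HEL pos libraries each of these genes had 3 counts, so they also differ between the groups of the spleen comparison above. Of the 6 erythroid genes 3 were at 0 in both groups, and the sum was 0 to 3.38 CPM in mLN and 41.0 to 91.1 CPM in Spl.

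Marker lists of B cell subsets differed between these groups too, with no overlap of the summed levels. Follicular genes (8) summed to 2210 to 2420 CPM in mLN and 3790 to 4510 CPM in Spl HEL pos cells, and marginal zone genes (11) to 1470 to 1820 and 2240 to 2960 CPM. Transitional genes (8) summed to 403 to 532 and 1290 to 2250 CPM, with Rag2 at 0 in mLN and Rag1 in Spl, and germinal centre genes (9) to 79.5 to 98.0 and 121 to 158 CPM. The sum of the 8 B-1 cell genes went the other way, with 149 to 197 CPM in mLN and 31.3 to 42.7 CPM in Spl. Of these genes only Ahr (3.48 ± 0.31, edgeR adjusted p = 7.24e-08) and Cd5 (2.31 ± 0.38, 0.000112) were called, where 24.5% of all genes were. The sum is therefore not read as a shift of the whole list. The part of these cell types in the Tnfrsf13c values was not tested.

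Genes that BAFF is known to maintain on the B cell surface fell in the mLN as well. Of 6 in HEL pos cells, 5 were called lower than in Spl and 0 higher (median -1.36; 24.5% of all genes called). Cr2, which encodes the complement receptor CD21, had 897 ± 292 CPM in Spl, 167 ± 18.9 in mLN and 350 ± 10.8 in PP (n = 3 each), a change of -2.42 ± 0.19 for mLN against Spl (edgeR adjusted p = 1.34e-08). Icosl, the ligand of the T cell costimulator ICOS, fell by -1.45 ± 0.16 (1.02e-06) and Cd40 by -1.27 ± 0.16 (5.16e-06). PP was above mLN for 4 of 6 genes and below for 0 in HEL pos cells (8.86% of all genes called), with Icosl at 1.34 ± 0.16 (edgeR adjusted p = 5.03e-05) and Cr2 at 1.06 ± 0.18 (0.00128). In BCL2 HEL pos cells 4 of 6 were lower in mLN than in Spl (10% of all genes called) and 2 of 6 higher in PP than in mLN (1.16%). Cr2 and Cd1d1 of this list also mark marginal zone B cells, which the spleen holds, and 8 of 11 marginal zone genes were lower in mLN than in Spl HEL pos cells.

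The adaptors that carry the signal from these receptors changed in part. Of 17 tested adaptor and alternative NF-kappaB genes, 7 were lower and 1 higher in mLN than in Spl HEL pos cells (median -0.20; 24.5% of all genes called). Those that fell included Birc3, which encodes a member of the complex that keeps the kinase NIK low (-1.11 ± 0.15, edgeR adjusted p = 9.04e-06), and Traf5 (-1.24 ± 0.17, 1.21e-05). In BCL2 HEL pos cells 5 fell and 0 rose, where 10% of all genes were called, among them Nfkb2, whose product is the p100 precursor (-0.62 ± 0.13, edgeR adjusted p = 0.00407). For PP against mLN, 1 rose and 1 fell in HEL pos cells, a share near the 8.86% of all genes called. Of the same genes only Birc3 was called in BCL2 HEL pos cells (0.60 ± 0.15, edgeR adjusted p = 0.0424), against 1.16% of all genes. In BCL2 HEL pos against HEL pos cells of the mLN, where neither receptor was called and 11.7% of all genes were, 3 rose and 1 fell: Traf5 by 1.17 ± 0.17 (edgeR adjusted p = 0.000127), Map3k14, which encodes NIK, by 1.10 ± 0.17 (0.000298), Traf3ip3 by 0.45 ± 0.12 (0.02) and Nfkb2 by -0.60 ± 0.13 (0.00503).

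In the PI3K arm of BAFF receptor signalling, 7 of 16 genes fell and 3 rose in mLN against Spl HEL pos cells (median -0.22; 24.5% of all genes called). The kinase gene Syk fell by -1.50 ± 0.17 (edgeR adjusted p = 1.23e-06) and Prkcb by -1.03 ± 0.14 (1.71e-05), while the adaptor gene Pik3ap1 rose by 0.73 ± 0.12 (7.01e-05). Among 12 classical NF-kappaB genes 3 rose and 1 fell, which is near the 24.5% of all genes called, so nothing is read from that count. The smallest p was that of Nfkbie, which encodes an NF-kappaB inhibitor (1.20 ± 0.15, edgeR adjusted p = 6.09e-06).

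Genes of the survival programme that BAFF is known to regulate moved the other way. Of 12 tested in HEL pos cells, 7 were higher and 1 lower in mLN than in Spl (median 1.09; 24.5% of all genes called). They do not share 1 function. Bcl2a1d and Bcl2a1b, which encode near-identical inhibitors of apoptosis and may share reads, rose by 2.86 ± 0.28 and 2.06 ± 0.24 (edgeR adjusted p = 3.18e-07 and 2.4e-06). Bcl2l11, which encodes the death inducer BIM, rose from 45.5 ± 7.56 to 188 ± 14.1 CPM (2.05 ± 0.21, 4.77e-07). Prkcd, whose kinase is known to act against B cell survival when BAFF is short, rose by 1.05 ± 0.12 (2.52e-06). In PP against mLN 3 of 12 fell and 0 rose in HEL pos cells (8.86% of all genes called), with Bcl2l11 at -1.12 ± 0.20 (edgeR adjusted p = 0.00197), and 2 of 12 fell in BCL2 HEL pos cells (1.16%), with Bcl2l11 at -1.36 ± 0.21 (0.00201).

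**Figure D5:**
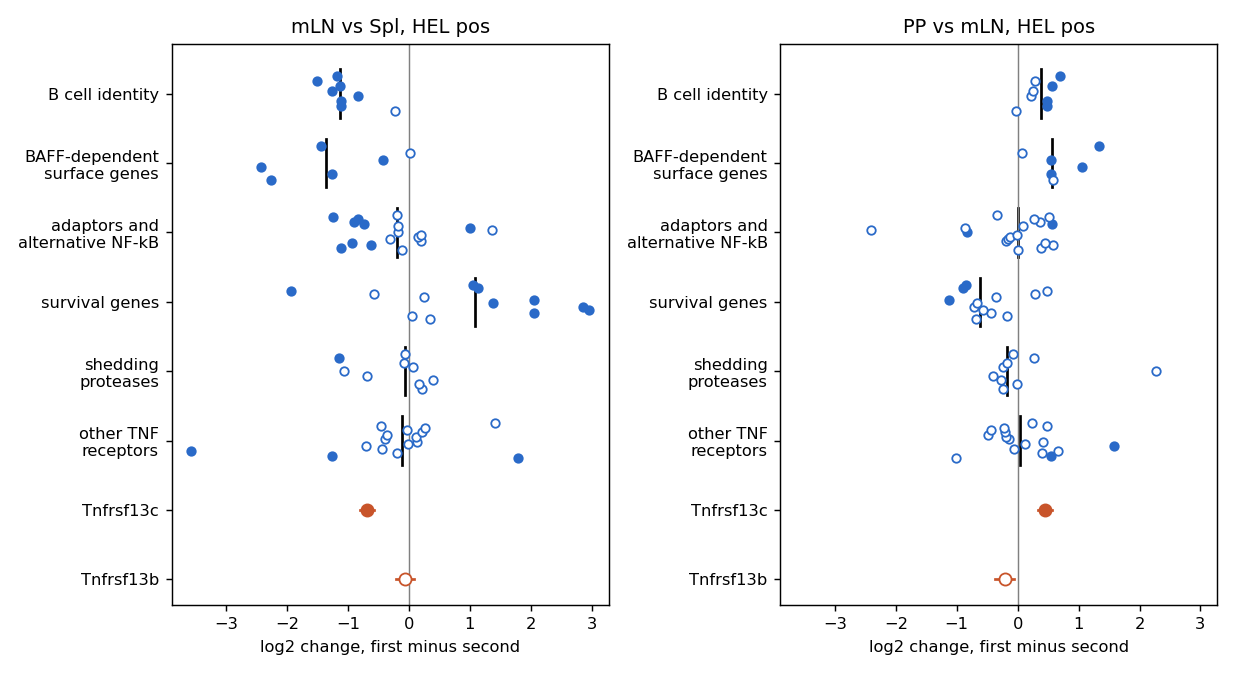
Log2 change of the tested genes of 6 lists and of Tnfrsf13c and Tnfrsf13b in HEL pos cells, for mLN against Spl (left) and PP against mLN (right); filled points have an edgeR adjusted p under 0.05, black lines are list medians and bars on the receptors are SE. B cell identity and BAFF-dependent surface genes lie mostly below 0 in mLN against Spl, as does Tnfrsf13c (-0.69), while the median of the survival genes is 1.09.

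The proteases that shed the receptors gave few changes. Psen2, a subunit of the gamma-secretase that cleaves BCMA, was the 1 gene of 9 called in mLN against Spl, lower in HEL pos (-1.15 ± 0.13, edgeR adjusted p = 1.26e-06) and in BCL2 HEL pos cells (-0.42 ± 0.13, 0.04). Adam10, the main sheddase of TACI, was at 146 ± 27.2 CPM in Spl, 168 ± 13.7 in mLN and 143 ± 30.7 in PP HEL pos cells (n = 3 each), with a change of 0.21 ± 0.15 for mLN against Spl (edgeR adjusted p = 0.321). Of the 16 other TNF receptor genes tested in that comparison, Cd40 and Ngfr were lower and Cd27 higher (1.78 ± 0.42, edgeR adjusted p = 0.00304), with a median of -0.11. Both shares are below the 24.5% of all genes called there.

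Against HEL neg cells in the mLN, in the fit of 21 libraries, where 9.34% of all genes were called in HEL pos and 3.19% in BCL2 HEL pos cells, BAFF-dependent surface genes were lower and survival genes higher, while adaptor genes went both ways. In HEL pos cells 5 of 6 BAFF-dependent surface genes were lower and 0 higher (median -1.11), with Icosl at -2.49 ± 0.20 (edgeR adjusted p = 1.31e-07) and Cr2 at -1.93 ± 0.23 (8.44e-06). Of the adaptor genes 5 of 18 were lower and 2 higher, with Traf5 at -1.83 ± 0.21 (8.14e-06), and of the survival genes 6 of 12 were higher and 0 lower, with Bcl2l11 at 2.31 ± 0.33 (7.78e-05). In BCL2 HEL pos cells 3 of 6 surface genes were lower and 4 of 12 survival genes higher, with Cr2 at -1.10 ± 0.23 (edgeR adjusted p = 0.00899) and Bcl2l11 at 2.14 ± 0.33 (0.000696). Against the 1 library of HEL neg cells, these values rest on the same assumption as those of the receptors. The survival list mixes inhibitors of apoptosis with inducers such as BIM, encoded by Bcl2l11, so its counts give no direction for survival. It also holds Bcl2, whose level differs with the BCL2 label.

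Among 8365 genes whose log2 CPM averaged 3 or more, those most like Tnfrsf13c over the 21 libraries were Ifi30 (Pearson r of log2 CPM 0.88), Sema5a (0.88), Ell3 (0.88), Vpreb3 (0.87) and Sema4d (0.85). Ifi30, a thiol reductase of antigen processing, averaged 1480 CPM in Spl HEL pos, 290 in mLN HEL pos and 300 in mLN BCL2 HEL pos cells, against 858 CPM in the mLN HEL neg pool. All 5 were lower in mLN than in Spl HEL pos cells, from -2.33 ± 0.19 for Ifi30 to -1.17 ± 0.31 for Sema5a (edgeR adjusted p = 2.51e-08 and 0.00784), and all 5 were higher in PP than in mLN BCL2 HEL pos cells, from 0.83 ± 0.15 for Ell3 to 1.82 ± 0.32 for Sema5a (0.00708 and 0.00543). These genes were picked for their likeness to Tnfrsf13c in the same libraries, so their changes only describe it. The most like Tnfrsf13b were Zfp386 (0.84), Txndc12 (0.77), Gpr108 (0.76), Unc93b1 (0.76) and Nudt16l1 (0.75), and none of them was called in those comparisons. The groups share tissues and libraries, so these coefficients are given as a description over 21 libraries.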

How the data were processed

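Bulk RNA of sorted B cells was sequenced single-end, per the labels' protocols. TruSeq and Nextera XT kits are both named there, and strand was not used. The authors deposited whole-number counts per gene. STAR, HTSeq, DESeq2 and the mm10 build are named in the submitters' processing notes, where no role, version or setting is given. All columns matched a library by name (0 unmatched).

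From these counts, genes were filtered with filterByExpr, libraries scaled with TMM, and groups tested by quasi-likelihood in edgeR 4.0.16 (R 4.3.3). Tests were two-sided, p-values were adjusted over all genes by Benjamini-Hochberg, and an adjusted p below 0.05 was a call. HEL pos and BCL2 HEL pos groups came from 1 fit of 18 libraries (11419 genes with 12 residual degrees of freedom; the biological coefficient of variation was 0.207). Comparisons with HEL neg cells used 12 libraries with tissue as covariate (11406 and 10987 genes, 8 residual degrees of freedom). A fit of 21 libraries in 9 groups (13741 genes) was added after the data were seen.

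Levels are CPM of TMM-scaled totals; per-kilobase levels use merged exons of all GENCODE M21 transcripts, so a gene with rarely used exons is understated. Lists were described by counts and medians. The members and lists were chosen with earlier results of these data known. Genes named were the 3 receptors, at most 4 called genes of each list with the smallest p, Bcl2, Cr2 and Sdc1 as checks, and the 5 genes most correlated with each tested receptor; Adam10, Fas and the ligand genes were named for their role, and a gene that the rule also takes is not reported here. Alternatives tried included DESeq2 1.42.0 and edgeR with its size factors, no filter, each library left out, PP HEL pos 399 and Pool left out (the libraries with the most olfactory and vomeronasal receptor transcripts, 719 and 943 CPM against at most 535 elsewhere), plain totals and the library number as a block. The edgeR script was tested on simulated data for mLN against Spl HEL pos cells. It recovered 16.4% of genes changed 1.5-fold, 79.1% of those changed 2-fold and 97% of those changed 4-fold. A change near 1.5-fold can therefore go uncalled.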

Additional observations from a re-analysis of the deposited data

Results flagged for a closer look

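The mLN minus Spl change of Tnfrsf13c differed between HEL pos and HEL neg cells, by -1 on the log2 scale (SE 0.24, edgeR adjusted p = 0.0252 in the added fit of 21 libraries). It is listed because the interaction itself passed the test. From Spl to mLN the level went from 563 to 694 CPM in the single HEL neg pools and from 710 ± 23.2 to 438 ± 37.8 CPM (SD, n = 3) in HEL pos cells, lower in all 3 HEL pos library numbers. The HEL neg side rests on 1 pool per tissue, so the spread of HEL neg cells was taken from the other groups.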

How the results depend on the processing

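The lower Tnfrsf13c in mLN than in Spl HEL pos cells and the higher Tnfrsf13c in PP than in mLN BCL2 HEL pos cells kept their call and direction under every alternative run, with -0.76 to -0.63 and 0.78 to 0.89 when single libraries were left out. Where another result lost or gained a call, the cause was not tested. Depth limits Tnfrsf17 (16 counts over 21 libraries), whereas Tnfrsf13b had at least 342 and Tnfrsf13c at least 2751 counts in each library.

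Without the filter on low counts, Tnfrsf13c gave 0.43 for PP against mLN HEL pos and -0.43 for BCL2 HEL pos against HEL pos in Spl (neither called), and Tnfrsf13b 0.031 for BCL2 HEL pos against HEL pos in PP (sign turned). Called genes then numbered 395 for PP against mLN BCL2 HEL pos, 191 and 114 for the mLN and PP interactions with BCL2, and 1495 for HEL pos against HEL neg. In the 21-library fit they numbered 253 (Spl) and 1068 (PP) for HEL pos against HEL neg, 470, 886 and 1301 (Spl, mLN, PP) for BCL2 HEL pos against HEL neg, and 586, 210, 116 and 98 for the differences of mLN minus Spl and PP minus mLN in HEL pos and BCL2 HEL pos cells.

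With DESeq2, Tnfrsf13c gave 0.38 for PP against Spl BCL2 HEL pos, 0.62 for the PP interaction, -0.76 and 1.03 for the BCL2 HEL pos differences from HEL neg cells in mLN minus Spl and PP minus mLN, and Tnfrsf13b 0.47 for mLN against Spl BCL2 HEL pos, all called. HEL pos against HEL neg in PP turned to -0.017 for Tnfrsf13c, also with DESeq2 size factors in edgeR. DESeq2 called 249 genes for PP against mLN BCL2 HEL pos, 163 and 60 for the interactions, 1551 for HEL pos against HEL neg, and in the 21-library design 120 (Spl) and 1001 (PP) for HEL pos and 297 (Spl) and 675 (mLN) for BCL2 HEL pos against HEL neg, and 628, 165, 147 and 115 for the differences.

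Libraries of the same number deviated together in 13 of 18 pairs (correlation over 0.1; range 0.02 to 0.306), and 17 of 18 libraries correlated best with their own number. The labels repeat each number in every tissue but do not say that it marks a mouse. The replicate numbers were therefore not taken to pair the samples in the main tests, which may leave shared variation out of account. With the replicate block Tnfrsf13c gave 0.37 for PP against Spl and Tnfrsf13b 0.48 for mLN against Spl in BCL2 HEL pos cells (both called). Called genes with the block were 1634 for PP against mLN HEL pos, 1388, 1773 and 480 for PP against Spl, mLN against Spl and PP against mLN BCL2 HEL pos, 192 and 48 for the interactions and 123 for HEL pos against HEL neg.

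Without PP HEL pos 399 and Pool, PP against mLN HEL pos gave 0.048 for Tnfrsf13b (sign turned) and 0.59 for Tnfrsf13c (not called), with 640, 209 and 255 genes called for PP against Spl, PP against mLN and BCL2 HEL pos against HEL pos in PP, and 0 for the PP interaction.

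With single libraries left out, Tnfrsf13c ranged from -0.499 to -0.381 for BCL2 HEL pos against HEL pos in Spl, 0.371 to 0.524 for PP against mLN HEL pos, -0.522 to -0.39 for mLN against Spl BCL2 HEL pos, -0.339 to 0.17 and -0.5 to 0.042 for HEL pos and BCL2 HEL pos against HEL neg, -0.058 to 0.086 for HEL pos against HEL neg in PP, and -1.048 to -0.931 for mLN minus Spl in HEL pos against HEL neg cells. Tnfrsf13b ranged from -0.592 to -0.45, -0.045 to 0.162 and -0.103 to 0.152 for BCL2 HEL pos against HEL pos in Spl, mLN and PP, -0.205 to 0.014 for mLN against Spl HEL pos, and -0.004 to 0.188 and -0.247 to 0.05 for HEL pos and BCL2 HEL pos against HEL neg. Called genes ranged over 569 to 911, 654 to 1192 and 638 to 1638 for BCL2 HEL pos against HEL pos in Spl, mLN and PP, 374 to 1512 for PP against mLN HEL pos, 561 to 862, 473 to 866 and 25 to 98 for mLN against Spl, PP against Spl and PP against mLN BCL2 HEL pos, 2 to 39 and 1 to 23 for the mLN and PP interactions, and 176 to 1574 and 1001 to 1777 for HEL pos and BCL2 HEL pos against HEL neg.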

Other observations

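The genes most opposite to Tnfrsf13c over the 21 libraries, among the same 8365, were Hscb (Pearson r of log2 CPM -0.88), Eef1a1 (-0.87), Rpl3 (-0.85), Bcl2l11 (-0.84) and Rplp0 (-0.83). Eef1a1, Rpl3 and Rplp0 encode parts of the translation machinery, and Bcl2l11 encodes the death inducer BIM. For Tnfrsf13b the most opposite were Mau2 (-0.79), Slc35e1 (-0.78), Rdh11 (-0.75), Mon2 (-0.75) and Ube3c (-0.74). These coefficients were not tested, since libraries share tissues and all genes of a library share its scaling factor.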
